A study of Codonopsis pilosula with 12 samples.

Results

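Leaves of Weidang No. 1 (W1), a cultivar of the perennial medicinal herb Codonopsis pilosula, were compared between drought (DW1, 3 libraries) and well-watered soil (CW1, 3 libraries). These 6 libraries were all those of W1 among 12; the other 6 came from Gandang No. 1 (G1), droughted (DG1) or watered (CG1). All plants were potted seedlings 4 weeks after emergence, kept outdoors under a rain shelter. Water was withheld from day 0, DW1 was sampled on day 4 and CW1 on day 0, and no watered plant was sampled on day 4, so drought and the 4 days between samplings cannot be told apart. The labels describe each sample as a mix of a pair of pots and the study's methods as 1 pot, so the p-values below measure the spread between these libraries. The response was described across annotated plant genes, that is, the 25558 of 55270 assembled genes with an NCBI non-redundant protein description. Such a description was taken as a plant match, and its species was not checked. Of these genes, 19562 had enough reads to be tested in the 6 libraries and 20664 in the 12. A gene carries the name of its best match, mostly in Arabidopsis or rice, and close relatives may share reads, so names stand for a likely family member rather than a proven ortholog.

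When soil dries, plants make and retain abscisic acid (ABA). ABA binds PYR/PYL receptors, which then block protein phosphatases 2C (PP2C), and this frees SnRK2 kinases to activate ABF transcription factors, to close stomata and to switch on protective proteins. In leaves the same stress is known to slow cell division, protein synthesis and wall growth, and, when it persists, to start the recycling of chlorophyll, starch and protein. RNA was taken from whole leaves, so fewer cells of a type and less RNA per cell cannot be told apart.

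The libraries held between 12415229 and 22837632 expected counts, the reads assigned to assembled genes. One control library, CW1 replicate 1, carries a treatment label that reads drought, while its title and the study's sampling scheme place it with the controls; its correlation with the other controls was 0.937 and 0.914 (Pearson r of log2(TPM + 1) across the 25975 genes tested), and with DW1 it was between 0.847 and 0.874. TPM is a transcript level scaled to gene length and library size. DW1 replicate 1 stood apart from its group. It correlated at 0.873 and 0.865 with DW1 replicates 2 and 3 and at 0.909 with CW1 replicate 3, whereas DW1 replicates 2 and 3 correlated at 0.922. On principal component 1, DW1 replicates 1, 2 and 3 lay at -4.4, 72.0 and 97.2, against -46.0, -77.5 and -41.3 for CW1, and DW1 replicate 1 lay alone at 87.4 on component 2.

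**Figure D1:**
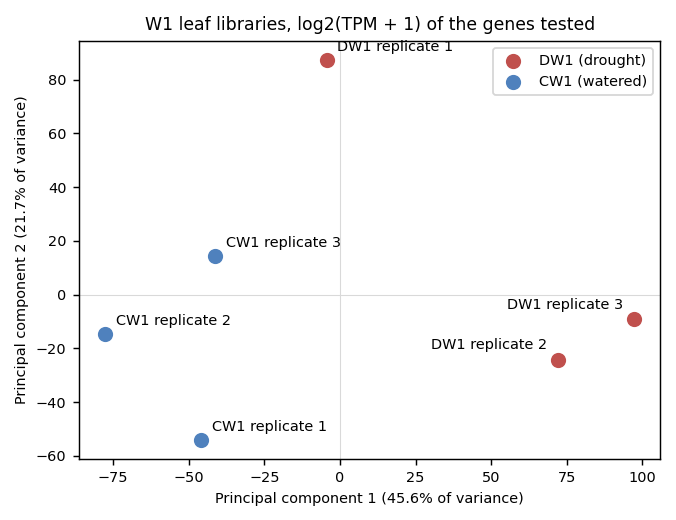
Principal components of log2(TPM + 1) in the 6 W1 libraries, with component 1 (45.6% of variance) on the horizontal axis and component 2 (21.7%) on the vertical axis, in arbitrary units. Each point is a library, DW1 in red and CW1 in blue. DW1 replicates 2 and 3 lie far right of the controls, and DW1 replicate 1 lies at -4.4 on component 1 and highest on component 2.

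DW1 replicate 1 held 89 plant genes at least 4-fold above every other W1 library, against 30 and 28 in DW1 replicates 2 and 3 and 0 to 12 in CW1 libraries. Examples, chosen after their values were seen and given without a test, came from suberin synthesis, which builds the waxy polymer of root and wound barriers in Arabidopsis. The fatty acid hydroxylase CYP86A1 (DN16867_c0_g4) had 17.2, 0.49 and 0.84 TPM in DW1, against 1.17, 0.79 and 0.94 TPM in CW1. GPAT5 (DN17232_c0_g5), an acyltransferase of the same route, had 11.9, 0.21 and 0 TPM in DW1, against 0.46, 0 and 0.63 TPM in CW1. Both were near 0 outside that library. The fructan-making enzyme 1-SST (DN13586_c2_g1) had 912, 102 and 25.9 TPM in DW1, against 134, 79.9 and 124 TPM in CW1, and the dirigent protein DIR23 (DN17963_c1_g1) had 3339.9, 371 and 358 TPM in DW1, against 164, 152 and 349 TPM in CW1. The part of this library in the results below was not tested beyond leaving it out, and the counts of list members that passed without it stand in parentheses.

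Mesophyll transcripts were abundant in every library. The small subunit of RuBisCO (RBCS, DN20840_c1_g2), the carbon-fixing enzyme of mesophyll, had 35346, 45068 and 42542 TPM in DW1, against 39931, 28842 and 45003 TPM in CW1. Of 37 mesophyll markers tested, 0 rose and 0 fell (0 and 0 without DW1 replicate 1), and their summed level was 97929, 141900.0 and 142438 TPM in DW1, against 98400.4, 88192 and 127927 TPM in CW1. Summed over all 26 listed root markers, tested or not, the level was 238, 263 and 236 TPM in DW1, against 292, 289.7 and 303 TPM in CW1. Of the 15 tested, 0 rose and 1 fell (0 and 2 without DW1 replicate 1). The one that fell in the fit on all libraries was SHR (DN13931_c0_g1), a regulator of root and leaf bundle cell layers, with 2.48, 3.76 and 2.74 TPM in DW1, against 12.3, 20.1 and 12 TPM in CW1 (log2 fold change -2.20 ± 0.34, edgeR adjusted p = 0.0262). Genes without a non-redundant protein description but with a vertebrate match in the SwissProt protein database summed to between 1387 and 2421 TPM, with no separation of the groups.

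Fitted on the 6 W1 libraries, the drought response passed an edgeR quasi-likelihood test (adjusted p under 0.05) at 1 gene rising (0.00385% of 25975 tested) and 0 falling (0%), although 5789 genes had an unadjusted p under 0.05. The gene was a miraculin-like protein (DN13660_c1_g2), of a protease inhibitor family. It had 102, 102 and 71.1 TPM in DW1, against 3.04, 1.82 and 2.42 TPM in CW1, a log2 fold change of 5.33 ± 0.28 (SE) with edgeR adjusted p = 0.00813. On the same libraries DESeq2 called 1364 rising and 1428 falling. When the spread was estimated over all 12 libraries, the same DW1 against CW1 contrast called 225 rising (0.771% of 29168 tested) and 233 falling (0.799%) by edgeR, of which 87 and 82 changed at least 4-fold and 192 and 215 were plant genes; the miraculin-like gene then had edgeR adjusted p = 0.102. In what follows, rose and fell mean a call in this 12-library fit, which was put first after the 6-library result was known, and fold changes are on the log2 scale from its counts with their SE (n = 3 each).

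These calls rested on few libraries. Without DW1 replicate 1 they numbered 650 rising (2.09% of 31145) and 1212 falling (3.89%), without DW1 replicate 2 they were 3 and 1, without DW1 replicate 3 they were 59 and 8, without CW1 replicate 1 they were 1 and 0, without CW1 replicate 2 none passed (3919 genes at an unadjusted p under 0.05), without CW1 replicate 3 they were 189 and 469, and without DG1 replicate 1 they were 341 and 381. The 6-library fit called 842 rising and 1218 falling without DW1 replicate 1, 3 and 0 without DW1 replicate 3, and none without DW1 replicate 2 or any 1 control. The levels themselves are therefore given library by library. All 3 DW1 values lay above all 3 CW1 values in 11.4% of the 25975 genes and below them in 14.7%. Among the 19562 plant genes tested they lay above in 2128 and below in 3312. The lists hold plant genes only, so their counts of separated genes should be read against these plant counts. The median log2 fold change over all genes tested was 0.02, and over plant genes -0.04.

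**Figure D2:**
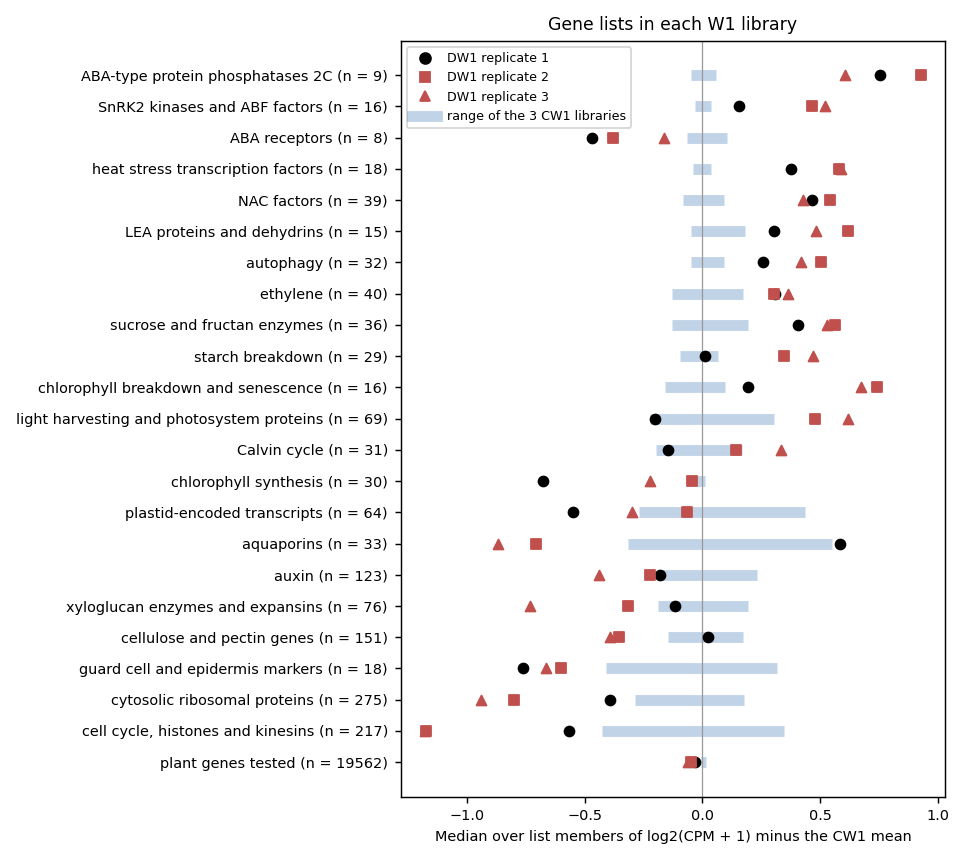
Median over the members of each gene list of log2(CPM + 1), where CPM is counts scaled to library size, minus the CW1 mean, with the list on the vertical axis. Points are DW1 libraries (black circle, replicate 1; red square, replicate 2; red triangle, replicate 3), and the pale bar spans the 3 CW1 libraries. PP2C, NAC and heat stress factor lists lie right of the control bar in all 3 DW1 libraries, ribosomal protein and cell cycle lists lie left of it, and aquaporins lie on opposite sides in DW1 replicate 1 and in replicates 2 and 3.

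The core of ABA signalling was higher in DW1 at the phosphatases and the transcription factors, while the receptors moved in both directions. Of 9 ABA-type PP2C genes, 3 rose and 0 fell (3 and 0 without DW1 replicate 1), with all DW1 values above all CW1 values in 6 and below in 0 of 9, and a median log2 fold change of 0.78. The list median relative to CW1 was 0.76, 0.93 and 0.60 in the 3 DW1 libraries, so DW1 replicate 1 shared this change. PP2C phosphatases shut ABA signalling off and are themselves induced by ABA in Arabidopsis. A PP2C 24-like gene (At2g29380, DN14062_c0_g4) had 102, 188 and 82.3 TPM in DW1, against 11.6, 12.9 and 18.2 TPM in CW1 (log2 fold change 3.19 ± 0.37, edgeR adjusted p = 0.0175). PP2CA (DN16290_c0_g3) had 109, 171 and 78.9 TPM in DW1, against 20.6, 22.6 and 21.1 TPM in CW1 (log2 fold change 2.61 ± 0.40, edgeR adjusted p = 0.0262), and a gene matching rice Os01g0583100 (DN16436_c0_g1) had 30.8, 31.6 and 13.5 TPM in DW1, against 5.16, 3.12 and 3.28 TPM in CW1 (log2 fold change 2.73 ± 0.35, edgeR adjusted p = 0.0187). In all 3 the lowest DW1 library was well above the highest CW1 library.

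Of 8 ABA receptors, 1 rose and 1 fell (1 and 2 without DW1 replicate 1). PYL11 (DN21356_c0_g6) had 13, 14.7 and 16.9 TPM in DW1, against 1.54, 2.37 and 2.54 TPM in CW1 (log2 fold change 2.88 ± 0.54, edgeR adjusted p = 0.0402). PYL4 (DN14705_c0_g7) had 2.88, 3.59 and 4.45 TPM in DW1, against 15.4, 21.9 and 13 TPM in CW1 (log2 fold change -2.09 ± 0.32, edgeR adjusted p = 0.0259), and the groups did not overlap for either receptor. Downstream, of 16 SnRK2 kinases, ABF factors and their partners 3 rose and 0 fell (3 and 0 without DW1 replicate 1), with a median log2 fold change of 0.45. ABF4 (DN19537_c1_g1), which binds ABA-response elements, had 57.4, 61.1 and 53.9 TPM in DW1, against 30.4, 37.2 and 31.7 TPM in CW1 (log2 fold change 0.91 ± 0.17, edgeR adjusted p = 0.0393). ABF2 (DN18961_c0_g2), of the same family, had 28.9, 55.1 and 35.1 TPM in DW1, against 9.08, 12.6 and 11.5 TPM in CW1 (log2 fold change 2.00 ± 0.37, edgeR adjusted p = 0.0382). AFP2 (DN20750_c1_g6), a negative partner of the ABI5 factor in Arabidopsis, rose as well, with 24.5, 29.2 and 17.7 TPM in DW1, against 8.02, 10.4 and 9.13 TPM in CW1 (log2 fold change 1.47 ± 0.24, edgeR adjusted p = 0.03). No SnRK2 kinase gene passed.

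ABA level genes gave 1 call. XERICO (DN20014_c0_g1), a RING protein that raises ABA content when overexpressed in Arabidopsis, had 117, 169.6 and 174 TPM in DW1, against 41.6, 30.4 and 33.9 TPM in CW1, the gene with the smallest p among the rising plant genes (log2 fold change 2.21 ± 0.25, edgeR adjusted p = 0.0175). Of 21 genes for ABA synthesis, breakdown and level control, 1 rose and 0 fell (2 and 0 without DW1 replicate 1), and DW1 lay above CW1 in 8 of 20. NCED3 (DN17465_c0_g5), the rate-limiting enzyme of ABA synthesis, had 4.1, 10.2 and 3.65 TPM in DW1, against 1.71, 1.23 and 1.99 TPM in CW1, separated groups but edgeR adjusted p = 0.0998.

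**Figure D3:**
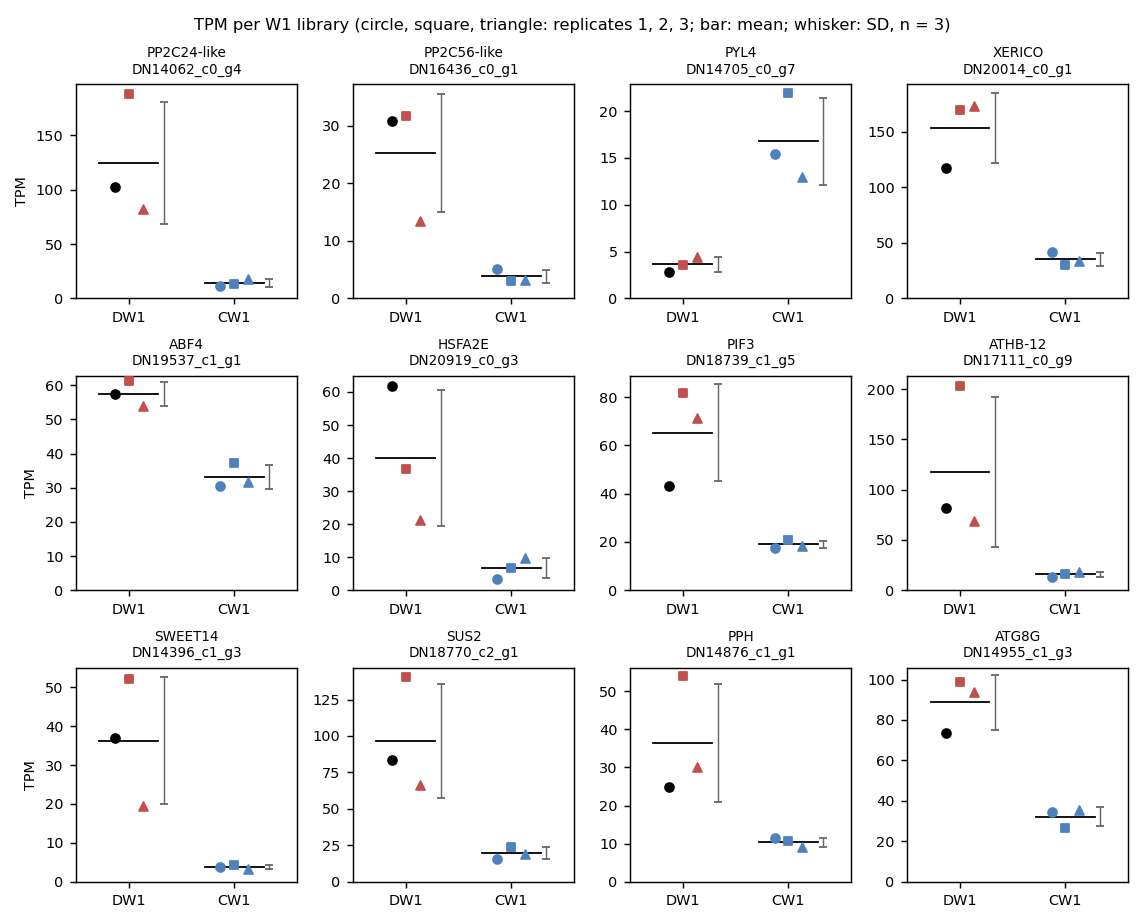
TPM in each W1 library for 12 genes, DW1 left of CW1 (circle, square and triangle for replicates 1, 2 and 3, black for DW1 replicate 1; bar, mean; whisker, SD, n = 3). The 3 DW1 libraries lie above the 3 CW1 libraries in every panel but PYL4, where they lie below, and DW1 replicate 2 is highest in most panels.

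Calls among transcription factors differed between families and with DW1 replicate 1. Of 41 NAC factors, a family with several drought regulators, 3 rose and 0 fell (5 and 1 without DW1 replicate 1), and DW1 lay above CW1 in 15 and below in 2 of 39, with a median log2 fold change of 0.62. NAC100 (DN12942_c0_g2) had 14.8, 11.5 and 11.1 TPM in DW1, against 2.66, 3.19 and 4.36 TPM in CW1 (log2 fold change 1.98 ± 0.35, edgeR adjusted p = 0.0373), and NAC078 (DN21493_c0_g5) had 54.7, 86.6 and 60.5 TPM in DW1, against 31, 38.3 and 36.7 TPM in CW1 (log2 fold change 1.02 ± 0.21, edgeR adjusted p = 0.0435). NAC072 (DN17826_c0_g3), an ABA-responsive member in Arabidopsis, had 27.2, 211 and 39 TPM in DW1, against 6.58, 9.04 and 6.53 TPM in CW1. Its DW1 replicate 2 was far above the other DW1 libraries and its edgeR adjusted p was 0.0529.

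Of 42 HD-Zip factors, 3 rose and 2 fell (4 and 4 without DW1 replicate 1). Those that rose were ATHB-12 (DN17111_c0_g9), ATHB-7 (DN20532_c1_g3) and ATHB-54 (DN13472_c1_g2), and the first pair are ABA-induced growth inhibitors in Arabidopsis. ATHB-12 had 81.6, 204 and 68.4 TPM in DW1, against 12.8, 16.2 and 17.9 TPM in CW1 (log2 fold change 3.00 ± 0.42, edgeR adjusted p = 0.0247). ATHB-7 had 8.99, 19 and 1.29 TPM in DW1, against 0, 0.23 and 0.29 TPM in CW1, near 0 in all controls. Those that fell were HAT3 (DN17414_c0_g3; log2 fold change -2.91 ± 0.60, edgeR adjusted p = 0.0432) and REV (DN16706_c0_g1; log2 fold change -0.82 ± 0.17, edgeR adjusted p = 0.0436), which pattern the upper side of leaves. HAT3 had 4.34, 1.51 and 0.67 TPM in DW1, against 18.6, 22.9 and 8.15 TPM in CW1.

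Of 83 bHLH factors, 3 rose and 0 fell (3 and 4 without DW1 replicate 1), and DW1 lay below CW1 in 19 of 79 and above in 8. The gene of smallest p among those that rose was PIF3 (DN18739_c1_g5), a partner of phytochrome, with 43, 81.8 and 71.3 TPM in DW1, against 17.6, 20.8 and 18.5 TPM in CW1 (log2 fold change 1.97 ± 0.25, edgeR adjusted p = 0.0187). Of 49 WRKY factors 2 rose and 0 fell (3 and 1 without DW1 replicate 1), and of 88 MYB factors 2 rose and 0 fell (4 and 2 without DW1 replicate 1). Of 32 bZIP factors 1 rose and 0 fell (2 and 2 without DW1 replicate 1). Of 89 AP2/ERF factors 0 rose and 0 fell (1 and 9 without DW1 replicate 1). The drought-linked DREB genes belong to AP2/ERF, where DW1 lay above CW1 in 11 and below in 11 of 77.

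Heat stress factors and a few chaperones rose. Of 19 heat stress transcription factors, 5 rose and 0 fell (5 and 1 without DW1 replicate 1), and the median log2 fold change was 0.67. HSFA2E (DN20919_c0_g3), of the class that drives chaperone genes, had 61.9, 36.8 and 21.2 TPM in DW1, against 3.5, 6.64 and 9.64 TPM in CW1 (log2 fold change 2.66 ± 0.39, edgeR adjusted p = 0.0258). HSF24 (DN19042_c1_g2) had 20.8, 26.6 and 26.9 TPM in DW1, against 8.7, 5.3 and 7.69 TPM in CW1 (log2 fold change 2.03 ± 0.43, edgeR adjusted p = 0.0457). The HSFA2E level was highest in DW1 replicate 1, and the lowest DW1 value was still above every control.

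Among 128 heat shock proteins and chaperones, 4 rose and 0 fell (8 and 2 without DW1 replicate 1), and the median log2 fold change was 0.08. The HSP70 gene MED37C (DN14403_c0_g2) had 83, 72.7 and 38 TPM in DW1, against 10.2, 9.08 and 16.5 TPM in CW1 (log2 fold change 2.51 ± 0.33, edgeR adjusted p = 0.0237). ATJ20 (DN17196_c1_g2), a plastid J-protein, had 141, 149.9 and 207 TPM in DW1, against 77.4, 66.3 and 80.2 TPM in CW1 (log2 fold change 1.19 ± 0.24, edgeR adjusted p = 0.0423). The disaggregase CLPB1 (DN14545_c1_g4) had 3.76, 9.48 and 4.03 TPM in DW1, against 0.1, 0 and 0 TPM in CW1 and edgeR adjusted p = 0.0617.

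Of 19 LEA proteins and dehydrins, hydrophilic proteins that accumulate in drying tissue, 1 rose and 0 fell (2 and 0 without DW1 replicate 1), with all DW1 values above all CW1 values in 4 and below in 0 of 15. Over the 15 also tested in the 6 libraries the median of log2(CPM + 1) relative to CW1 was 0.31, 0.62 and 0.48 in the DW1 libraries. SAG21 (DN14809_c1_g6) rose, with 572, 1213 and 762 TPM in DW1, against 148, 191 and 223 TPM in CW1 (log2 fold change 2.30 ± 0.47, edgeR adjusted p = 0.0426). A LEA14-like gene (DN14479_c1_g5) split the drought libraries, with 214, 91.6 and 0.28 TPM in DW1, against 1.27, 0.77 and 1.03 TPM in CW1, so its DW1 replicate 3 was no higher than the controls.

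Genes for compatible solutes gave 1 call. Of 11 proline genes 0 rose and 0 fell (1 and 0 without DW1 replicate 1), and P5CS (DN15631_c0_g4), the first enzyme of proline synthesis, had 36.2, 31 and 22.8 TPM in DW1, against 34.1, 41 and 32.4 TPM in CW1, overlapping groups. Of 26 galactinol, raffinose and trehalose enzymes, 1 rose and 0 fell (1 and 1 without DW1 replicate 1). The one that rose was an inositol-3-phosphate synthase (DN20513_c1_g1), which makes the inositol used for galactinol, with 1062, 1388 and 1611 TPM in DW1, against 284, 257 and 352 TPM in CW1 (log2 fold change 2.33 ± 0.41, edgeR adjusted p = 0.0343). Galactinol synthase GOLS1 (DN15231_c0_g2) had 685, 542 and 1129.7 TPM in DW1, against 280.5, 246 and 337 TPM in CW1, separated groups with edgeR adjusted p = 0.147.

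Sucrose, sugar transport and starch breakdown genes rose in part. Of 37 sucrose and fructan enzymes, 4 rose and 0 fell (6 and 0 without DW1 replicate 1), with all DW1 values above all CW1 values in 12 and below in 3 of 36 and a median log2 fold change of 0.68. Sucrose synthase SUS2 (DN18770_c2_g1) had 83.3, 141 and 66.1 TPM in DW1, against 15.9, 24.1 and 18.9 TPM in CW1 (log2 fold change 2.39 ± 0.36, edgeR adjusted p = 0.0258). The cell wall invertase-like CWINV3 (DN21169_c1_g3), a glycosidase family that splits sucrose or fructan outside the cell, had 67.6, 75.3 and 53.1 TPM in DW1, against 25.2, 7.82 and 13.5 TPM in CW1 (log2 fold change 2.24 ± 0.38, edgeR adjusted p = 0.0325). Sucrose phosphate synthase SPS1 (DN18229_c0_g1), which makes sucrose, had 54.1, 68.5 and 38.5 TPM in DW1, against 28.5, 24.7 and 30.9 TPM in CW1 (log2 fold change 1.17 ± 0.24, edgeR adjusted p = 0.0419). Genes on the synthesis and on the cleavage side of sucrose were both among those that rose.

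Of 47 sugar transporters, 4 rose and 1 fell (6 and 2 without DW1 replicate 1). The effluxer SWEET14 (DN14396_c1_g3) had 37, 52.2 and 19.6 TPM in DW1, against 3.72, 4.29 and 3.23 TPM in CW1 (log2 fold change 3.38 ± 0.44, edgeR adjusted p = 0.0187). A plastidic glucose transporter (At5g16150, DN18651_c1_g4), which exports glucose from degraded starch, fell, with 19.4, 14.6 and 11.8 TPM in DW1, against 41.1, 44.8 and 32.5 TPM in CW1 (log2 fold change -1.28 ± 0.27, edgeR adjusted p = 0.0436). A second type (At1g67300) rose at both of its genes, DN18632_c1_g7 and DN18632_c1_g2, whose sequences may share reads.

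Of 29 starch breakdown genes, 2 rose and 0 fell (6 and 0 without DW1 replicate 1), and DW1 lay above CW1 in 8 of 29. The calls with all libraries were the alpha-amylases AMY3 (DN19358_c0_g1), with 32.9, 32 and 50.6 TPM in DW1, against 14.7, 13.2 and 14.8 TPM in CW1 (log2 fold change 1.52 ± 0.33, edgeR adjusted p = 0.0482), and AMY2 (DN19485_c0_g2; log2 fold change 1.38 ± 0.27, edgeR adjusted p = 0.0406). The beta-amylase BAM1 (DN14349_c0_g4), a drought-responsive isoform in Arabidopsis, had 78, 235 and 108 TPM in DW1, against 51, 44.1 and 44 TPM in CW1 and edgeR adjusted p = 0.0529. Of 19 starch synthesis genes 0 rose and 0 fell (0 and 0 without DW1 replicate 1).

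Nuclear photosynthesis genes did not pass, while some plastid-encoded and plastid expression genes fell. Of 70 light harvesting and photosystem genes 0 rose and 0 fell (0 and 0 without DW1 replicate 1), with medians relative to CW1 of -0.20, 0.48 and 0.62 in the 3 DW1 libraries, so DW1 replicate 1 lay on the opposite side of the CW1 mean from the rest. The antenna gene LHCB2.4 (DN19818_c0_g1) had 5809, 7872 and 10079 TPM in DW1, against 5829.5, 5161 and 6912 TPM in CW1. Of 32 Calvin cycle genes, 0 rose and 1 fell (0 and 1 without DW1 replicate 1). The call with all libraries was the alpha subunit of the chaperonin that folds RuBisCO (DN19395_c0_g5), with 154, 187 and 147 TPM in DW1, against 415, 404 and 285 TPM in CW1 (log2 fold change -1.07 ± 0.21, edgeR adjusted p = 0.0419).

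Of 77 plastid-encoded transcripts, 0 rose and 2 fell (0 and 2 without DW1 replicate 1), with all DW1 values above all CW1 values in 5 and below in 15 of 64. Plastid messages largely lack long poly(A) tails and the libraries were made from poly(A) RNA, so their levels here are those of a captured fraction. The intron maturase matK (DN14525_c0_g8) had 7.91, 13.6 and 6.44 TPM in DW1, against 88, 67.5 and 42 TPM in CW1 (log2 fold change -2.73 ± 0.39, edgeR adjusted p = 0.0256), and ribosomal protein rps3 (DN21156_c0_g3) had 1.84, 1.41 and 0.76 TPM in DW1, against 9.13, 8.49 and 4.75 TPM in CW1 (log2 fold change -2.75 ± 0.33, edgeR adjusted p = 0.0175). A pair of nuclear genes whose Arabidopsis relatives belong to the plastid RNA polymerase complex fell too, and were linked to it after their values were seen. FSD2 (DN16824_c0_g1), an iron superoxide dismutase and the antioxidant gene that fell, had 5.72, 3.41 and 3.23 TPM in DW1, against 23.1, 32.2 and 9.67 TPM in CW1 (log2 fold change -2.61 ± 0.34, edgeR adjusted p = 0.0187). CITRX1 (DN15247_c0_g1), a thioredoxin-like protein, had 6.04, 8.52 and 5.59 TPM in DW1, against 34.8, 41.1 and 16.2 TPM in CW1 (log2 fold change -2.09 ± 0.31, edgeR adjusted p = 0.0258).

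Among chlorophyll genes, the 1 call with all libraries was at the breakdown end. Of 17 chlorophyll breakdown and senescence genes, 1 rose and 0 fell (5 and 0 without DW1 replicate 1), with DW1 above CW1 in 7 of 16. PPH (DN14876_c1_g1), which removes the phytol tail, had 24.9, 53.9 and 30.2 TPM in DW1, against 11.4, 10.8 and 9.08 TPM in CW1 (log2 fold change 1.93 ± 0.38, edgeR adjusted p = 0.0406). Other steps were less even between libraries. PAO (DN14565_c0_g1), which opens the ring after PPH has acted, had 25.4, 71.8 and 35.8 TPM in DW1, against 18.4, 14.4 and 16.5 TPM in CW1 and edgeR adjusted p = 0.0516, and SGR (DN14798_c1_g2), the stay-green magnesium dechelatase, which acts before PPH, had 6.52, 39.96 and 6.41 TPM in DW1, against 3.85, 2.57 and 2.51 TPM in CW1 and edgeR adjusted p = 0.0792. DW1 replicate 2 was highest in each of these genes. Of 30 chlorophyll synthesis genes 0 rose and 0 fell (0 and 1 without DW1 replicate 1), with DW1 above CW1 in 1 and below in 6 of 30. Summed over all 33 listed synthesis genes, tested or not, the level was lower in DW1. It was 2627, 4082 and 3854 TPM in DW1, against 4514, 4297 and 4175 TPM in CW1, with DW1 replicate 1 lowest. CCD1 (DN21184_c2_g1), a carotenoid cleavage dioxygenase, rose among 28 carotenoid genes, of which 1 rose and 0 fell (1 and 0 without DW1 replicate 1), with 306, 327 and 415 TPM in DW1, against 125, 101 and 136 TPM in CW1 (log2 fold change 1.85 ± 0.32, edgeR adjusted p = 0.0329).

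Autophagy genes, which carry cell contents to the vacuole for recycling, rose at ATG8. Of 33 genes, 2 rose and 0 fell (5 and 0 without DW1 replicate 1), and DW1 lay above CW1 in 14 and below in 1 of 32, with a median log2 fold change of 0.41. ATG8 is the protein that coats the autophagosome membrane. ATG8G (DN14955_c1_g3) had 73.4, 98.7 and 93.9 TPM in DW1, against 34.6, 26.7 and 35.4 TPM in CW1 (log2 fold change 1.64 ± 0.21, edgeR adjusted p = 0.0187), and ATG8I (DN19823_c1_g1) had 85, 99.9 and 86.9 TPM in DW1, against 53.9, 46.2 and 59.7 TPM in CW1 (log2 fold change 0.89 ± 0.19, edgeR adjusted p = 0.0458). A polyubiquitin gene (UBI11, DN14098_c0_g5) rose as well, with 104, 194 and 93.3 TPM in DW1, against 37.9, 33.1 and 47.2 TPM in CW1 (log2 fold change 1.83 ± 0.32, edgeR adjusted p = 0.0343).

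Antioxidant and detoxification lists gave few calls. Of 84 antioxidant enzymes, 1 rose and 1 fell (4 and 3 without DW1 replicate 1). The one that rose was the peroxidase PER51 (DN21523_c0_g9), with 6.25, 27.3 and 5.83 TPM in DW1, against 1.52, 1.1 and 0.97 TPM in CW1 (log2 fold change 3.54 ± 0.67, edgeR adjusted p = 0.0402), again highest in DW1 replicate 2. Of 61 glutathione S-transferases, 1 rose and 0 fell (3 and 0 without DW1 replicate 1), with all DW1 values above all CW1 values in 11 and below in 3 of 56. It was TCHQD (DN14448_c0_g1), with 16.6, 17.9 and 18.2 TPM in DW1, against 9.99, 8.87 and 10.3 TPM in CW1 (log2 fold change 0.96 ± 0.18, edgeR adjusted p = 0.0401).

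Among the lists, those of cell division and protein synthesis had the most genes that fell. Of 220 cell cycle, histone and kinesin genes, 0 rose and 26 fell (1 and 97 without DW1 replicate 1), with all DW1 values above all CW1 values in 5 and below in 101 of 217. The median log2 fold change was -0.99. The list median relative to the CW1 mean was -0.56, -1.18 and -1.18 in the 3 DW1 libraries, against 0.13, 0.35 and -0.42 in CW1. DW1 replicate 1 therefore lay close to CW1 replicate 3. Histones package new DNA and their messages peak in dividing cells. Histone H3 (HTR2, DN14452_c0_g1) had 181, 62.8 and 40.8 TPM in DW1, against 1356, 1932 and 319.9 TPM in CW1 (log2 fold change -3.61 ± 0.69, edgeR adjusted p = 0.0403). Histone H2B (DN13558_c0_g1) had 604, 352 and 290.4 TPM in DW1, against 2530.2, 3544 and 817 TPM in CW1 (log2 fold change -2.41 ± 0.47, edgeR adjusted p = 0.0406), and histone H1.2 (DN20530_c0_g5) had 337, 224 and 287 TPM in DW1, against 943, 1177 and 449 TPM in CW1 (log2 fold change -1.50 ± 0.31, edgeR adjusted p = 0.0426). In all 3 the lowest control was CW1 replicate 3, and no DW1 value reached it.

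Of 277 cytosolic ribosomal protein genes, 1 rose and 25 fell (1 and 125 without DW1 replicate 1), with all DW1 values above all CW1 values in 43 and below in 117 of 275 and a median log2 fold change of -0.75. Summed over all 314 listed genes, tested or not, the level was 37342, 24654 and 20442 TPM in DW1, against 57872, 67094 and 40091 TPM in CW1. The groups did not overlap but DW1 replicate 1 lay close to CW1 replicate 3. The stalk protein P0 (DN14770_c1_g3) had 260.1, 204 and 167 TPM in DW1, against 621, 731 and 376 TPM in CW1 (log2 fold change -1.36 ± 0.28, edgeR adjusted p = 0.044), and RPS9C (DN12987_c0_g4) of the small subunit had 257, 186 and 156 TPM in DW1, against 459, 516 and 329.9 TPM in CW1 (log2 fold change -1.04 ± 0.20, edgeR adjusted p = 0.0403). The member that rose, RPS27AA (DN18377_c1_g3), encodes ubiquitin fused to a ribosomal protein, and had 83.7, 114 and 66.2 TPM in DW1, against 16, 15.7 and 27.9 TPM in CW1 (log2 fold change 2.23 ± 0.43, edgeR adjusted p = 0.0403). The poly(A)-binding protein PAB2 (DN13711_c0_g2), which helps messages to be translated, fell too, with 41.4, 32 and 26.1 TPM in DW1, against 111, 142 and 86.3 TPM in CW1 (log2 fold change -1.69 ± 0.24, edgeR adjusted p = 0.0256).

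**Figure D4:**
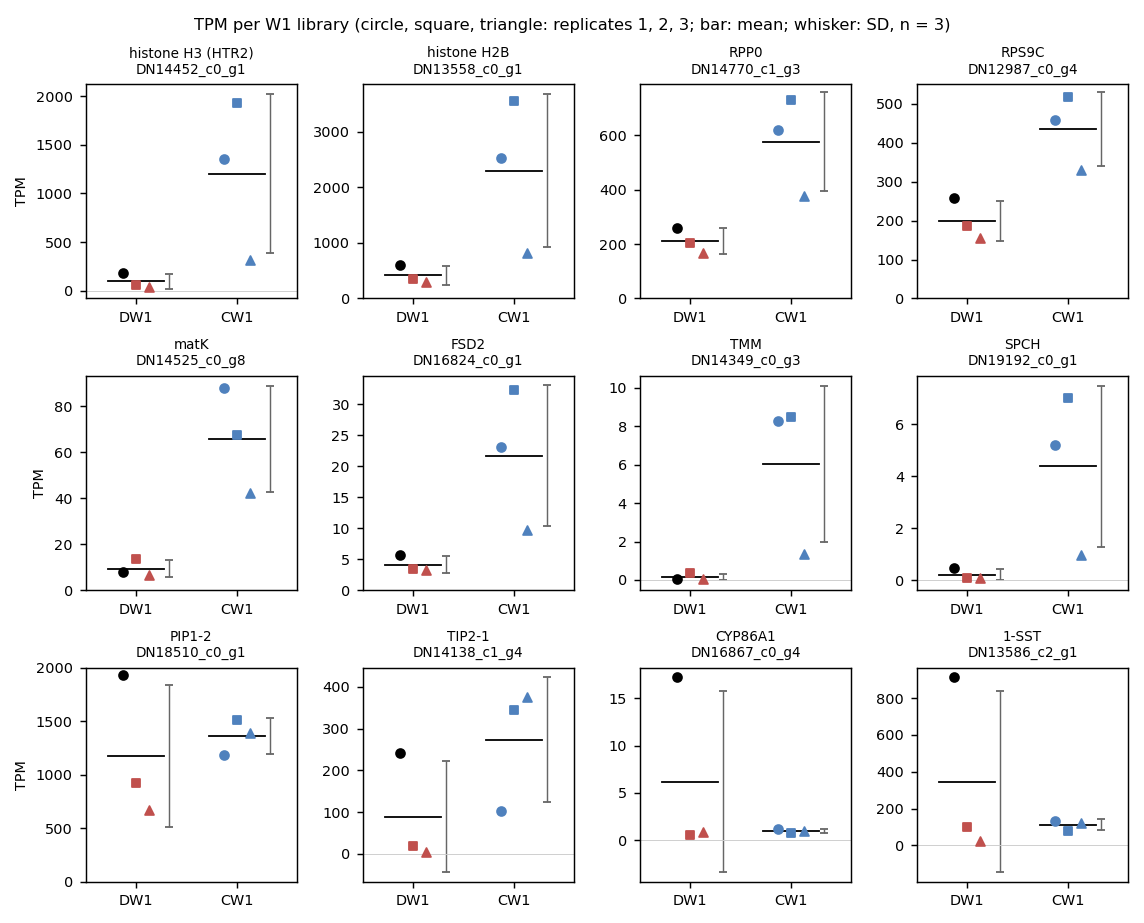
TPM in each W1 library for 12 genes, DW1 left of CW1 (circle, square and triangle for replicates 1, 2 and 3, black for DW1 replicate 1; bar, mean; whisker, SD, n = 3). The first 8 panels show genes that fell, with all DW1 libraries below all CW1 libraries. The last 4 (PIP1-2, TIP2-1, CYP86A1 and 1-SST) did not pass, and DW1 replicate 1 lies far above the other DW1 libraries in each.

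Genes of the stomatal lineage fell with the cell cycle genes. Of 18 guard cell and epidermis markers, 0 rose and 2 fell (0 and 3 without DW1 replicate 1), and DW1 lay below CW1 in 6. SPCH (DN19192_c0_g1), which starts the lineage in the young epidermis, had 0.46, 0.09 and 0.07 TPM in DW1, against 5.19, 6.99 and 0.96 TPM in CW1 (log2 fold change -4.24 ± 0.89, edgeR adjusted p = 0.0453). TMM (DN14349_c0_g3), the receptor that spaces stomata, had 0.06, 0.34 and 0.04 TPM in DW1, against 8.29, 8.5 and 1.35 TPM in CW1 (log2 fold change -5.35 ± 1.11, edgeR adjusted p = 0.0435). Both were near 0 in every DW1 library, and among controls CW1 replicate 3 was lowest. PDF1 (DN21369_c0_g2), an epidermis gene, had 143, 125 and 50.4 TPM in DW1, against 697, 1191 and 341 TPM in CW1 and edgeR adjusted p = 0.109. Summed over all 25 listed markers, tested or not, the level was 373, 286 and 200.8 TPM in DW1, against 994, 1504 and 513 TPM in CW1, and its part in the other falling groups was not tested. Of 21 vascular and secondary wall markers 0 rose and 0 fell (0 and 0 without DW1 replicate 1).

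Wall growth lists gave few calls with all libraries, and more of their genes lay below CW1 than above it, as among all plant genes tested. Over all 20664 plant genes, 192 rose and 215 fell. Of 82 xyloglucan enzymes and expansins, which loosen walls, 1 rose and 2 fell (1 and 10 without DW1 replicate 1), with DW1 above CW1 in 4 and below in 16 of 76. A xyloglucan endotransglucosylase (DN13462_c0_g3) had 24.1, 25 and 21.1 TPM in DW1, against 54.6, 61.9 and 77.6 TPM in CW1 (log2 fold change -1.36 ± 0.23, edgeR adjusted p = 0.0325). Of 156 cellulose and pectin genes, 1 rose and 2 fell (1 and 6 without DW1 replicate 1), with DW1 above CW1 in 10 and below in 38 of 151. Those that fell were the pectin synthase GAUT1 (DN15107_c1_g3; log2 fold change -0.72 ± 0.15, edgeR adjusted p = 0.044) and a pectate lyase (At3g53190, DN14776_c1_g3; log2 fold change -1.41 ± 0.30, edgeR adjusted p = 0.0442). Of 108 cuticular wax and cutin genes, 0 rose and 3 fell (1 and 3 without DW1 replicate 1), and the 3 that fell with all libraries encode GDSL-type or other lipases. Of 86 lignin genes 0 rose and 0 fell (1 and 1 without DW1 replicate 1). The tubulin TUBA3 (DN15498_c0_g1), of the housekeeping list, fell, with 17, 11.3 and 10.0 TPM in DW1, against 23, 33.2 and 33.7 TPM in CW1 (log2 fold change -1.16 ± 0.24, edgeR adjusted p = 0.0428). Of 64 housekeeping genes, 1 rose (UBI11) and 1 fell (1 and 12 without DW1 replicate 1). In this list DW1 lay above CW1 in 4 and below in 25 of 62, with a median log2 fold change of -0.47, so genes often taken as stable were lower too. Sterol methyltransferases, which shape membrane sterols, fell at both SMT2 (DN14599_c0_g1), with 98.5, 98.4 and 74.2 TPM in DW1, against 184, 246 and 217 TPM in CW1 (log2 fold change -1.16 ± 0.17, edgeR adjusted p = 0.0256), and SMT1 (DN14259_c0_g1; log2 fold change -0.96 ± 0.20, edgeR adjusted p = 0.0433).

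The remaining genes with the smallest p among those that fell were of mixed function. Defensin SD2 (DN20509_c1_g1), a small antimicrobial protein, had 467, 382 and 434 TPM in DW1, against 1644, 1776 and 1819 TPM in CW1, with little spread inside either group (log2 fold change -1.95 ± 0.20, edgeR adjusted p = 0.0175). LAZY1 (LA1, DN17532_c1_g1), which steers shoot growth against gravity in rice, had 0.77, 1.57 and 1.95 TPM in DW1, against 14.5, 31.5 and 29.2 TPM in CW1 (log2 fold change -3.97 ± 0.59, edgeR adjusted p = 0.0258). A blue copper protein (DN12977_c1_g1) and a glucan 1,3-beta-glucosidase (DN15997_c1_g3) completed them (log2 fold change -1.67 ± 0.23, edgeR adjusted p = 0.0247 for the copper protein). Among those that rose, a 2-methylene-furan-3-one reductase (EO, DN19352_c0_g1), an oxidoreductase that makes an aroma compound in strawberry, had 151, 158 and 128 TPM in DW1, against 34.9, 24.4 and 41.9 TPM in CW1 (log2 fold change 2.05 ± 0.24, edgeR adjusted p = 0.0175). An aspartate racemase (DN21152_c1_g3) had 34, 50.9 and 47.6 TPM in DW1, against 11.3, 7.17 and 5.89 TPM in CW1 (log2 fold change 2.59 ± 0.35, edgeR adjusted p = 0.0247).

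Hormone genes other than ABA gave calls at single steps. For gibberellin, the receptor GID1B (DN19761_c1_g2) had 31.1, 45.3 and 28.5 TPM in DW1, against 9.83, 8.42 and 7.53 TPM in CW1 (log2 fold change 2.13 ± 0.41, edgeR adjusted p = 0.0403), and GA2OX8 (DN14479_c0_g1), which inactivates gibberellin, had 19.1, 26.3 and 12.6 TPM in DW1, against 6.95, 4.12 and 4.7 TPM in CW1 (log2 fold change 2.02 ± 0.34, edgeR adjusted p = 0.0329). For cytokinin, the phosphotransfer protein AHP4 (DN17995_c1_g3) rose, with 135, 223 and 255 TPM in DW1, against 62.7, 35.3 and 41.6 TPM in CW1 (log2 fold change 2.51 ± 0.45, edgeR adjusted p = 0.0374), and LOG8 (DN19108_c1_g5), which releases active cytokinin, fell, with 14.5, 12.7 and 15.5 TPM in DW1, against 31.9, 41.3 and 26.3 TPM in CW1 (log2 fold change -1.10 ± 0.18, edgeR adjusted p = 0.0298). Of 30 gibberellin genes 2 rose and 0 fell (3 and 2 without DW1 replicate 1), and of 41 cytokinin genes 1 rose and 1 fell (3 and 2 without DW1 replicate 1).

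For ethylene, 2 rose and 0 fell (6 and 0 without DW1 replicate 1) of 41, with DW1 above CW1 in 11 and below in 1 of 40. The kinase CTR1 (DN15997_c1_g5), which holds the pathway off in Arabidopsis, had 36.2, 55 and 39.2 TPM in DW1, against 15.4, 15.1 and 20.3 TPM in CW1 (log2 fold change 1.43 ± 0.30, edgeR adjusted p = 0.0462). For auxin, 1 rose and 2 fell (4 and 12 without DW1 replicate 1) of 129, with DW1 below CW1 in 33 of 123 and a median log2 fold change of -0.40. GH3.9 (DN18396_c0_g1), of the family that conjugates auxin, had 4.77, 2.54 and 1.62 TPM in DW1, against 9.86, 21.5 and 9.05 TPM in CW1 (log2 fold change -2.12 ± 0.37, edgeR adjusted p = 0.0346). Of 34 brassinosteroid genes 1 rose and 0 fell (1 and 2 without DW1 replicate 1), and the one that rose with all libraries was CYP90D2 of the synthesis route (DN20031_c0_g3; log2 fold change 1.45 ± 0.29, edgeR adjusted p = 0.0406), and of 53 jasmonate genes 0 rose and 0 fell (0 and 0 without DW1 replicate 1).

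Among transport genes, those that rose included a pair matching the same proton pump and a pair matching the same nitrate or peptide carrier. A plasma membrane proton pump matching LHA1 of tomato rose at DN19326_c0_g1, with 16.4, 30.3 and 12.9 TPM in DW1, against 4.02, 3.9 and 5.3 TPM in CW1 (log2 fold change 2.41 ± 0.34, edgeR adjusted p = 0.0247), and at DN20784_c0_g7 (log2 fold change 2.60 ± 0.32, edgeR adjusted p = 0.0187), which may share reads. Of 107 ion channels and pumps, 2 rose and 0 fell (6 and 0 without DW1 replicate 1). NPF3.1 (DN21684_c1_g1), a carrier for nitrate and hormones in Arabidopsis, had 139.7, 69.1 and 105 TPM in DW1, against 13.9, 9 and 9 TPM in CW1 (log2 fold change 3.16 ± 0.43, edgeR adjusted p = 0.0247), and a further NPF3.1 gene (DN21374_c1_g2) had 87.6, 103 and 101 TPM in DW1, against 23.9, 21.8 and 33.4 TPM in CW1 (log2 fold change 1.80 ± 0.35, edgeR adjusted p = 0.0403). Of 120 calcium sensors and kinases, 1 rose and 0 fell (3 and 1 without DW1 replicate 1). The kinase CIPK25 (DN16333_c0_g2) had 11.9, 24.4 and 12.8 TPM in DW1, against 4.33, 6.28 and 4.9 TPM in CW1 (log2 fold change 1.76 ± 0.29, edgeR adjusted p = 0.0325).

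Aquaporins, the channels for water, split the drought libraries. Of 33, 0 rose and 0 fell (1 and 3 without DW1 replicate 1), and the list median relative to CW1 was 0.59, -0.71 and -0.87 in DW1 replicates 1, 2 and 3. PIP1-2 (DN18510_c0_g1) of the plasma membrane had 1930.0, 922 and 674 TPM in DW1, against 1181, 1509.6 and 1392 TPM in CW1. TIP2-1 (DN14138_c1_g4) of the vacuole membrane had 242, 19.7 and 5.18 TPM in DW1, against 101, 344 and 375 TPM in CW1. In both, DW1 replicates 2 and 3 lay below every control while DW1 replicate 1 did not. Summed over all 38 listed aquaporins, tested or not, the level was 7414, 2866 and 2094 TPM in DW1, against 3448, 5023 and 5584 TPM in CW1.

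The transcription factors that the study lists and the genes it chose for PCR were read in the same way. The study took the factors from genes it called in G1 and not in W1 in these libraries. It describes the PCR genes as randomly selected, and their choice may also have used these libraries. Since the factors were chosen as not called in W1, few W1 calls among them followed from that choice. Of the factors and PCR genes, PIF3 was the one that rose with all libraries, and none fell. The PIF3 log2 fold change was 1.97 in W1 and 1.98 in G1. The study also required a change of at least 4-fold, which the calls here did not, and both PIF3 values lay just below it. Without DW1 replicate 1, CEL3 (log2 fold change -3.70, edgeR adjusted p = 0.0112), the glucosidase-like At5g56590 (DN17997_c0_g6, -3.64, edgeR adjusted p = 0.0253), its relative At1g11820 (DN17456_c0_g1, -1.36, edgeR adjusted p = 0.0305) and FIT (-2.61, edgeR adjusted p = 0.0358) passed as well, lower in DW1. KAN4 (DN15527_c1_g3) had 3.69, 1.16 and 0.33 TPM in DW1, against 4.94, 6.39 and 2.81 TPM in CW1, and BHLH80 (DN18631_c1_g4) had 16.5, 20.4 and 15.9 TPM in DW1, against 12.6, 10.3 and 7.38 TPM in CW1, with separated groups in the second. FIT (DN15518_c1_g1), a regulator of iron uptake, had 23.9, 5.32 and 2.02 TPM in DW1, against 20.1, 33.6 and 22.5 TPM in CW1, and CEL3 (DN18947_c0_g2), a wall endoglucanase, had 111, 2.53 and 1.14 TPM in DW1, against 22.2, 22.4 and 33.2 TPM in CW1, both with DW1 replicate 1 far above the other DW1 libraries.

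Some PCR genes separated DW1 from CW1 in TPM without passing the test. Starch synthase SS4 (DN16219_c0_g1), which starts new starch granules in Arabidopsis, had 6.45, 5.5 and 6.32 TPM in DW1, against 29.4, 14 and 12 TPM in CW1 (edgeR adjusted p = 0.0885). The cytokinin response regulator ARR17 (DN15371_c3_g5) had 7.71, 5.84 and 6.17 TPM in DW1, against 23.9, 28 and 13.6 TPM in CW1 (edgeR adjusted p = 0.0881). HST (DN14056_c0_g1), an acyltransferase of phenylpropanoid synthesis, had 29.4, 22.7 and 35.7 TPM in DW1, against 10.1, 14.2 and 14.4 TPM in CW1 (edgeR adjusted p = 0.115), and the glutathione transferase GSTU17 (DN17746_c2_g5) had 14.7, 17.5 and 8.76 TPM in DW1, against 5.6, 1.67 and 4.45 TPM in CW1 (edgeR adjusted p = 0.116). Their primers, written 5′ to 3′, are those that the study lists, and they were not mapped to the assembled genes.
SS4 forward: tgaccccagattcaggcatt
SS4 reverse: accatcccacgaaaagtcct
ARR17 forward: ggggagttgttggttagtgc
ARR17 reverse: cacaagtttgcggtcgatga
HST forward: ctcgggttttgaaagaggcc
HST reverse: gctcaggcgaaggtgtaaag
GSTU17 forward: ttagcttgggtgagggtagc
GSTU17 reverse: agccctgatcactgctttct

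Whether the drought effect differed between W1 and G1 was tested by an interaction term over the 12 libraries. It passed at 4 genes with a higher W1 effect (0.0137% of 29168) and at 0 with a lower one (0%; 2769 genes had an unadjusted p under 0.05, and DESeq2 called 244 higher and 124 lower). None passed when CW1 replicate 1, 2 or 3, DG1 replicate 2 or CG1 replicate 2 or 3 was left out, 1 higher and 1 lower passed without DW1 replicate 2, 8 and 0 without DG1 replicate 1, and 270 and 38 without CG1 replicate 1. In the same fit G1 had 3346 genes rising and 3583 falling, and this difference in counts is not itself a test. The xyloglucan endotransglucosylase that fell in W1 was one of the 4, with a log2 fold change of -1.36 ± 0.23 in W1, against -4.31 in G1 (edgeR adjusted p of the difference = 0.023). Its levels were 6.81, 5.84 and 3.45 TPM in DG1, against 129, 102 and 95.0 TPM in CG1, so the W1 levels were lower than those of G1 in watered plants and higher under drought.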

How the data were processed

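Leaf poly(A) RNA was sequenced on Illumina, and the authors assembled the reads with Trinity and quantified them with RSEM. They deposited expected counts and TPM per assembled gene, with protein matches. The labels also name mouse genome builds, which were not used. Expected counts were rounded, genes filtered with filterByExpr by group, scaled by TMM and tested with edgeR 4.0.16 (glmQLFit, glmQLFTest) in R 4.3.3, with Benjamini-Hochberg adjustment over all genes tested. The main design used the 6 W1 libraries, and alternatives were a fit on all 12 libraries, DESeq2 1.42.0, limma 3.58.1 on log2(TPM + 1), no filter, a replicate block and leaving out each library. SE is the log2 fold change over the root of F. Scripts were tested on simulated data. Gene lists were matched by words of the annotation. Named genes were the 10 rising and 10 falling plant genes of smallest p with separated groups, up to 3 called members per list and direction (otherwise the 2 most abundant), and the study's factors and PCR genes, with some added after their values were seen (NCED3, NAC072, CLPB1, BAM1, PAO, SGR, TIP2-1, PDF1, GOLS1, the LEA14-like and suberin genes, 1-SST). Members and lists were chosen with earlier results of these data known.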

Additional observations from a re-analysis of the deposited data

Results flagged for a closer look

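The effect of drought differed between W1 and G1 at 4 genes (edgeR interaction over 12 libraries, adjusted p under 0.05), each with the W1 log2 fold change above that of G1. At the xyloglucan endotransglucosylase DN13462_c0_g3 the difference was 2.94. At DN20045_c1_g2, which resembles the transposon-derived nuclease HARBI1, the difference was 5.99. Its levels were 2.08, 1.21 and 1.21 TPM in DW1, against 0.44, 0.44 and 0.18 TPM in CW1, and 1.16, 1.76 and 2.27 TPM in DG1, against 18.1, 27.6 and 28.4 TPM in CG1, so watered G1 was the group that stood apart. At DN17938_c1_g4, an uncharacterized plant protein, the difference was 5.58, and watered G1 again held most of the signal, with 1.03, 2.25 and 0.97 TPM in DW1, against 0.74, 0.92 and 0.76 TPM in CW1, and 2.63, 1.75 and 1.2 TPM in DG1, against 27.6, 63.6 and 48.9 TPM in CG1. At DN18318_c0_g1, which has no annotation, the difference was 3.45 in counts, with a log2 fold change of 1.02 in W1, against -2.43 in G1. Its TPM did not show a difference of that size, with 31.6, 42.9 and 33.4 TPM in DW1, against 32.3, 29.0 and 40.4 TPM in CW1, and 27.4, 9.94 and 11.5 TPM in DG1, against 26.5, 27.0 and 25.5 TPM in CG1. The cause was not tested.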

How the results depend on the processing

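The fit on 6 libraries called 1 gene rising and 0 falling, and it called 45 and 33 with no low-count filter, 1364 and 1428 with the DESeq2 Wald test, 225 and 233 with all 12 libraries, and 4 and 4 with limma-trend on log2(TPM + 1). With a replicate block it called 0 and 0 (4525 genes at an unadjusted p under 0.05). Same-numbered libraries deviated from their group means with r of -0.22, -0.11 and 0.01, and no library correlated best with its own number. With 3 libraries a group, each centred on its group mean, these values cannot decide whether the numbers pair the libraries. Leaving out one library gave 0 to 842 genes rising and 0 to 1218 falling on the 6 libraries, and 0 to 650 and 0 to 1212 on the 12, both highest without DW1 replicate 1. A robust prior gave 219 and 221 on the 12 libraries. The W1 and G1 difference called 4 higher and 0 lower, 244 and 124 with DESeq2, 0 and 0 with the replicate block, and 0 to 270 and 0 to 38 with one library left out. The cause was not tested. Of 113 single-gene results, which are genes called over 12 libraries or given with a fold change from that fit, none changed direction in any setting, 101 no longer passed in the 6-library fit, 96 with limma-trend and 71 with no filter, and 102 passed or failed alike with DESeq2. Most of these genes were chosen because they passed that fit, and the settings share its libraries, so agreement in direction was favoured by the choice. Of the 58 other named genes, which did not pass and are given mainly by their levels, 19 changed sign in at least 1 setting and 7 in the 12-library fit without DW1 replicate 1, among them CEL3 (log2 fold change -3.70, against 0.52 with all libraries) and LAR (-3.19, against 1.39). Of 114 list counts, 53 moved over 1.5 times in the 6-library fit and 90 with DESeq2. With 3 libraries a group and one apart from its group, a gene that did not pass is not shown to be unchanged.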

Other observations

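Lists not described above gave few calls in W1. Counts without DW1 replicate 1 stand in parentheses. Of 87 nitrogen genes 2 rose and 0 fell (2 and 2), and both that rose are NPF3.1. Of 60 beta-1,3-glucanase and callose genes 1 rose and 2 fell (2 and 9), with all DW1 values below all CW1 values in 16 of 54. The callose synthase CALS2 (DN16838_c0_g2) had 21.9, 23.5 and 24.5 TPM in DW1, against 12.7, 13.2 and 14.9 TPM in CW1. Of 63 clock and light genes 0 rose and 0 fell (3 and 0), and the clock gene GI (DN19082_c1_g1) had 57.0, 64.1 and 66.4 TPM in DW1, against 38.8, 46.1 and 55.6 TPM in CW1. Of 87 phenylpropanoid and flavonoid genes 0 rose and 0 fell (2 and 3), with DW1 above CW1 in 11 and below in 2 of 81. Chalcone synthase (CHS, DN12851_c1_g4), which opens flavonoid synthesis, had 677, 891 and 683 TPM in DW1, against 465, 198 and 361 TPM in CW1. Of 79 terpenoid genes 0 rose and 1 fell (0 and 2). None rose or fell among 183 NLR immune receptors (1 and 0), 49 fatty acid desaturases (0 and 1) and 30 branched-chain amino acid genes (1 and 2).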
